A study of Mus musculus with 24 samples.

Results

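The comparison set the muscularised diaphragm of mouse embryos at E16.5 (E with the days of embryonic life) against the pleuroperitoneal folds, its primordium, at E11.5. Its members are the 8 arrays titled as fold at E16.5 and the 8 titled as fold at E11.5, 16 of the 24 arrays of the series, and all 19351 genes that 1 probe set each could name. Every embryo was wild type and of the strain C57BL/6J, and no treatment is named. Tissue was cut by laser capture from mid-thoracic cryosections, which were transverse at E11.5 and sagittal at E16.5, so stage and plane of section cannot be told apart. The array titles keep the name of the fold at E16.5, while the source of every sample is given as primordial diaphragm tissue. Each sample was amplified from a small amount of RNA and hybridised to 1 Affymetrix Mouse Gene 1.0 ST array. The labels number the samples of a stage from 1 to 8 and do not say which embryo or litter each came from. The p-values therefore rest on the spread between these samples, which may in part be technical. Values are log2 intensities, on which 1 unit is a doubling. Means carry the SD over n = 8 arrays, and a change is the E16.5 mean minus the E11.5 mean on the log2 scale with its standard error. The 8 arrays of E12.5, the stage between, entered the estimate of each gene's spread and are shown where a value is placed between the stages. For a gene that varied widely at E12.5, the standard error and p-value therefore do not give the precision of the 2 compared stages alone. Tnnt3, for example, ran from 8.30 to 13.20 at E12.5.

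The pleuroperitoneal folds are paired ridges of mesenchyme, covered by mesothelium, that grow across the body cavity between lung and liver. Muscle progenitors migrate into them from the cervical somites, guided by Hgf from the fold and its receptor Met, and then divide, fuse into fibres and build sarcomeres, the repeating contractile units of actin and myosin. The fold's connective tissue patterns this muscle and forms the central tendon, and when the folds fail to close or to be filled with muscle the result is a congenital diaphragmatic hernia.

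A few facts about the arrays bear on all results. Arrays of different stages correlated less (Pearson's r over genes 0.909 on average between E11.5 and E16.5) than arrays of 1 stage (0.965 within E11.5 and 0.973 within E16.5). E16.5 replicates 1 to 4 stood apart from replicates 5 to 8: they lay wholly above them in 1244 genes and wholly below them in 994. Many results that moved with these sets are therefore also given with a set of 4 left out. The Y-linked gene Eif2s3y was below 5 in 2 of 8 arrays at E11.5 and in 5 of 8 at E16.5. The sexes are thus unequally spread, and the fit holds no term for sex. Sex-linked genes also moved with the E16.5 sets. Of 6 measured, 0 rose and 0 fell with all arrays. Without replicates 1 to 4, 1 rose and 3 fell, and without replicates 5 to 8, 0 rose and 2 fell. Their mean ran from 7.933 to 8.647 in replicates 1 to 4 and from 7.991 to 8.015 in replicates 5 to 8. The part of sex in the fits with a set left out was not tested. Markers of another tissue also differed by stage. The mean of 20 hepatocyte markers lay at 6.66 to 6.87 in the E11.5 arrays and at 8.82 to 10.84 in the E16.5 arrays, and its part in the other results was not tested. In tissue cut out whole, fewer cells of a type and less RNA per cell cannot be told apart. The lower quartile of an array's genes serves here as the limit below which signal is not told from background. A change is called a lower bound where the gene lay under the lower quartile in over 4 of the 8 arrays of its lower stage, or belonged to the 20 brightest in over 4 of the 8 arrays of its higher stage.

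Muscle genes were higher and genes of a dividing mesenchyme lower at E16.5 than at E11.5. Genes of the contractile apparatus and of muscle metabolism rose, many of them by 16-fold or more, while genes of DNA replication, mitosis, RNA splicing and of the fold's own transcription factors fell, mostly by less than 4-fold. In limma with Benjamini-Hochberg adjustment 6479 of 19351 genes passed the threshold of 0.05 (33.5%), of which 2680 were higher at E16.5 (13.8% of all genes) and 3799 lower (19.6%). At an unadjusted p under 0.05 there were 8329. Every count of a list's genes below is to be read against the shares of 13.8% higher and 19.6% lower. The falls were more numerous and the rises larger: the median change was 0.74 over the genes that rose and -0.44 over those that fell, and -0.08 over all genes. By 2-fold or more 887 genes rose (4.58%) and 377 fell (1.95%), by 4-fold 296 and 42, by 8-fold 138 and 11, and by 16-fold 74 and 3. All 8 arrays of E16.5 lay above all 8 of E11.5 in 1010 genes that passed (5.22%) and below them in 747 (3.86%). Among the genes changed by 2-fold, 151 of those that rose and 33 of those that fell meet the limit for a lower bound at the dim end.

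**Figure D1:**
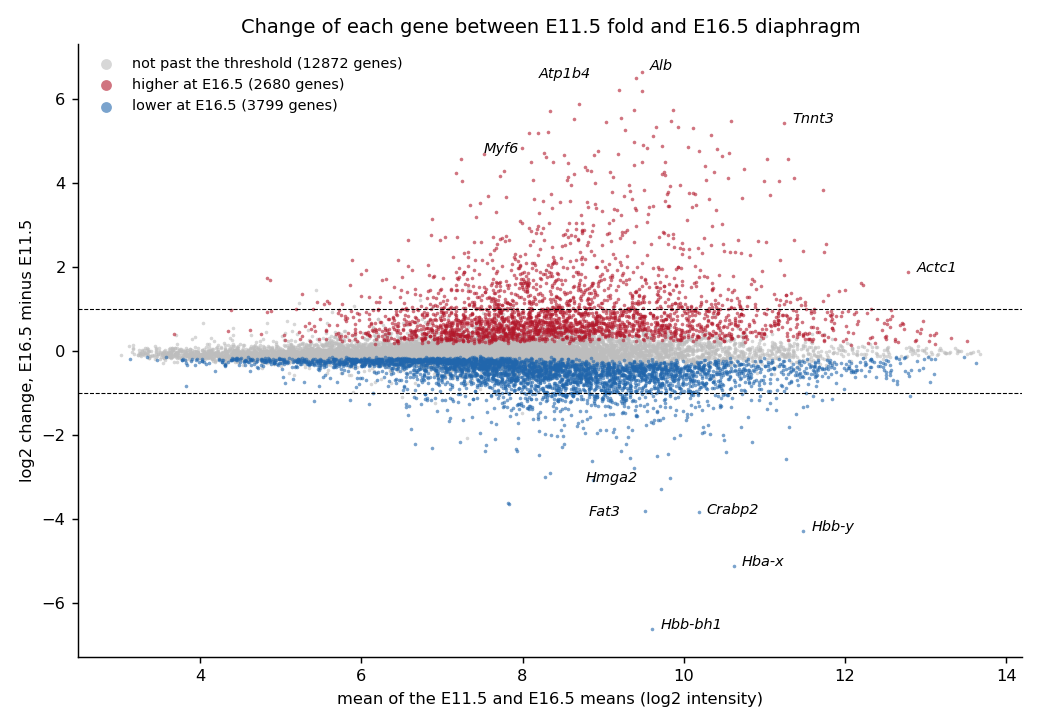
Mean level (horizontal, log2 intensity) against log2 change from E11.5 to E16.5 (vertical) for 19351 genes, with the dashed lines at a change of 2-fold. Genes past the threshold are red where higher and blue where lower at E16.5. The upper cloud reaches further from 0 than the lower one, with Alb at 6.65 and Hbb-bh1 at -6.62 at the ends.

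The sets within E16.5 changed how many genes passed. With replicates 1 to 4 left out 4265 genes passed, 1968 higher and 2297 lower, and with replicates 5 to 8 left out 5481 passed, 2518 higher and 2963 lower. Of the 2680 rises 1585 passed in both of these fits and of the 3799 falls 1623, while 836 of the 887 rises of 2-fold and 356 of the 377 such falls did. None of the genes called with all arrays had the opposite call in either fit (0 genes). Both fits share their E11.5 and E16.5 arrays with the main fit, so an opposite call was unlikely from the start. The count is no independent check of direction. E12.5 lay closer to the earlier stage. Its mean was nearer the E11.5 mean than the E16.5 mean in 835 of the 887 genes that rose by 2-fold and in 367 of the 377 that fell by 2-fold.

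The largest rises were in genes of muscle fibres, of liver, of connective tissue and of neutrophils. Where no array of one stage reached into the range of the other, the 15 largest were, in order, Alb, Atp1b4, Smpx, Myl2, Dpt, Cox8b, Myoz2, Ppp1r3a, Aspn, S100a8, Myot, Myh8, Trdn, Tnnt3 and Ampd1. Alb, which encodes serum albumin and is made by hepatocytes, lay between 5.78 and 6.70 at E11.5 (median 6.11) and between 11.53 and 13.22 at E16.5 (median 13.06). It rose by 6.65 ± 0.46 (limma, adjusted p = 2.48e-11). Atp1b4 is a relative of the sodium pump's beta subunits that in placental mammals sits in the inner nuclear membrane of muscle cells. Its E11.5 arrays ran from 5.80 to 6.36 (median 6.23) and its E16.5 arrays from 12.46 to 12.90 (median 12.61), a rise of 6.51 ± 0.45 (adjusted p = 2.47e-11). All 8 of the earlier arrays were thus at the dim end of the scale and all 8 later ones were bright. Smpx, a small protein of the costamere, rose by 6.23 ± 0.34, and Myl2, the regulatory light chain of slow and ventricular myosin, by 6.20 ± 0.56. Cox8b, the heart and muscle form of a cytochrome oxidase subunit, ran from 6.79 to 7.28 (median 6.95) and then from 12.14 to 13.02 (median 12.80), a rise of 5.75 ± 0.34. Ppp1r3a, which ties protein phosphatase 1 to muscle glycogen, rose by 5.72 ± 0.28, and Ampd1, the AMP deaminase of skeletal muscle, by 5.34 ± 0.27. In this list of 15 the changes of Alb, Atp1b4, Smpx, Myl2, Dpt, Myoz2, Ppp1r3a, Aspn, S100a8 and Trdn are lower bounds because of the dim E11.5 arrays, and that of Tnnt3 because it was among the 20 brightest genes in all 8 E16.5 arrays.

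The largest falls were led by embryonic globins, followed by genes of retinoic acid handling, of patterning and of early growth. In order they were Hbb-bh1, Hba-x, Hbb-y, Crabp2, Fat3, Rimklb, Otor, Mpped2, Hmga2, Tmtc2, Unc5c, Aldh1a2, Crabp1, Pdgfc and Marchf11. Hbb-bh1 and Hbb-y encode embryonic beta-type globins and Hba-x the embryonic alpha-type globin, all made by the primitive red cells that circulate first. Hbb-bh1 lay between 12.60 and 13.30 at E11.5 (median 12.95) and between 5.52 and 7.12 at E16.5 (median 6.31), a fall with a log2 change of -6.62 ± 0.29 (adjusted p = 1.34e-14). Hbb-y lay between 13.56 and 13.69 (median 13.63) and then between 7.81 and 11.21 (median 8.96), a change of -4.29 ± 0.40. The E16.5 arrays of Hbb-y were widely spread, at 7.81 to 8.80 in replicates 1 to 4 and 9.11 to 11.21 in replicates 5 to 8. Fat3, a giant protocadherin, went from a range of 10.67 to 12.07 to one of 6.38 to 10.10, with a change of -3.82 ± 0.35. Hmga2, a chromatin protein of embryonic growth, lay between 11.08 and 11.63 (median 11.40) and then between 7.38 and 8.95 (median 8.30), a change of -3.02 ± 0.18 (adjusted p = 2.45e-12). Unc5c, a netrin receptor, changed by -2.91 ± 0.15 and Pdgfc, a ligand of the platelet-derived growth factor receptor alpha, by -2.55 ± 0.16. The changes of Hbb-bh1, Rimklb and Otor are lower bounds because E16.5 arrays were dim, and that of Hbb-y because it was among the brightest genes in all 8 E11.5 arrays.

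**Figure D2:**
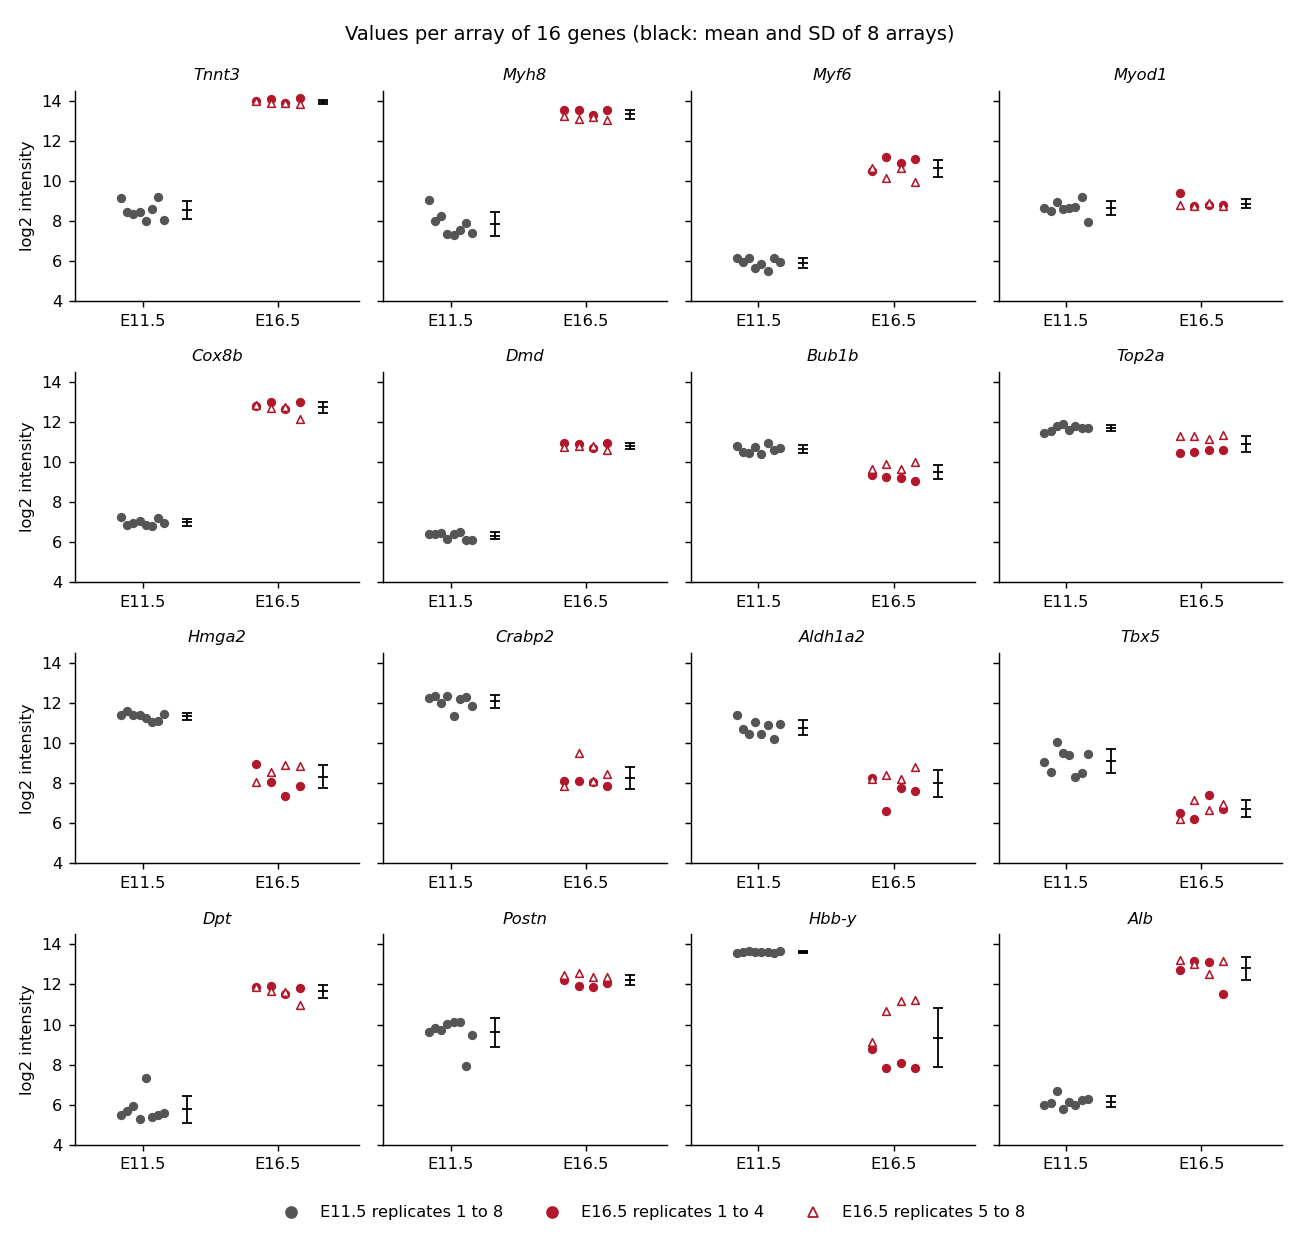
Log2 intensity (vertical) of 16 genes in the 8 arrays of E11.5 (grey) and the 8 of E16.5 (red, with open triangles for replicates 5 to 8), with mean and SD in black. The stages are apart in every panel except Myod1, and the E16.5 sets are apart for Myh8, Bub1b, Top2a, Postn and Hbb-y.

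Nearly every sarcomere gene rose. Of 56 measured, 55 rose and 1 fell, against 13.8% and 19.6% of all genes, with a median change of 3.73. In 54 of them all E16.5 arrays lay above all E11.5 arrays, and 53 rose by 2-fold or more. The E16.5 sets did not overlap, at list means of 11.64 to 11.89 in replicates 1 to 4 and 11.04 to 11.38 in replicates 5 to 8. The median change was 3.335 without replicates 1 to 4 and 3.935 without replicates 5 to 8, and 55 genes rose in each fit. Tnnt3, the fast skeletal troponin T that anchors the calcium switch to the thin filament, ran from 8.01 to 9.21 at E11.5 (median 8.45) and from 13.83 to 14.12 at E16.5 (median 13.94), a rise of 5.43 ± 0.42 (adjusted p = 1.76e-10). Myh8, the perinatal myosin heavy chain, ran from 7.29 to 9.05 (median 7.73) and then from 13.05 to 13.57 (median 13.27), a rise of 5.47 ± 0.43. The embryonic myosin Myh3 rose by 4.13 ± 0.36 and the slow myosin Myh7 by 3.38 ± 0.18. Of the adult fast myosins, Myh4 rose by 2.85 ± 0.14, Myh1 by 2.73 ± 0.32 and Myh2 by 1.38 ± 0.20. The rise of Myh1 is a lower bound, since E11.5 arrays were dim. For Myh1 and Myh2 the size of the rise differed between the E16.5 sets, at 1.77 and 0.77 without replicates 1 to 4, and 3.70 and 1.98 with replicates 5 to 8 left out. These myosin genes are close copies of each other and their probes may share signal, which was not tested. Actc1, the alpha-actin of heart and of embryonic skeletal muscle, was already at 11.18 to 12.70 (median 11.82) in the fold and at 13.63 to 13.78 (median 13.75) in the diaphragm. Its rise of 1.89 ± 0.21 is a lower bound, as are those of Tnnt3, of Tnnc2 (3.83 ± 0.29) and Tnni2 (4.58 ± 0.36), the fast troponins C and I, and of the fast light chain Mylpf (4.12 ± 0.35), since E16.5 arrays had them among their brightest genes. Acta1, the adult skeletal alpha-actin, rose by 4.58 ± 0.38 and Tpm1, alpha-tropomyosin, by 0.64 ± 0.08. The exception was Tpm3, a tropomyosin with both slow-muscle and cytoskeletal forms, at 12.28 to 12.69 in the fold and 12.20 to 12.48 in the diaphragm (-0.26 ± 0.06, adjusted p = 0.000649), with overlapping arrays. That direction depends on the probe set: with the mean over the gene's probe sets the change was 0.82.

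The 150 bases before the start of 3 sarcomere genes are shown because these genes rose together and their promoters carry motifs long known from muscle genes. The sequences are RefSeq's, on GRCm38.p6, and run 5′ to 3′ on the gene's strand up to the base before its start. Capitals mark a CArG box, which serum response factor binds, in Myom1 and Acta1, and the E-box CAGCTG, which MyoD family factors can bind, in Myoz2. Myom1 encodes the M-band protein myomesin and lies here at chr17:71019407-71019556 on the plus strand; Acta1 is at chr8:123894776-123894925 and Myoz2, a Z-disc protein that binds calcineurin, at chr3:123034988-123035137, both on the minus strand.
Myom1: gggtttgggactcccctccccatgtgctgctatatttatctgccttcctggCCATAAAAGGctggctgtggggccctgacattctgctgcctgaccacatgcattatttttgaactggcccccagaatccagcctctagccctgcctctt
Acta1: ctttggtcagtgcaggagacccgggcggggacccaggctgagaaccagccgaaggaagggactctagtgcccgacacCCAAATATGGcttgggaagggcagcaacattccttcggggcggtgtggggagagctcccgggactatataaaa
Myoz2: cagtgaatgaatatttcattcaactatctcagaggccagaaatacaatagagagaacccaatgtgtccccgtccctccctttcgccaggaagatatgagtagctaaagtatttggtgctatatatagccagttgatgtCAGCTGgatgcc
Over the 250 bases before the start, searched on both strands in the 12827 genes with 1 entry in the promoter table, a CArG box was found in 5 of 35 sarcomere promoters (14.3%) and in 1.26% of all promoters. It was found in 0 of 13 promoters of excitation-contraction coupling genes and 0 of 20 of muscle energy metabolism. The letters CAGCTG were found in 12 of the 35 (34.3%), in 6 of the 13 (46.2%) and in 9 of the 20 (45.0%), and in 12.2% of all. Among genes that rose by 8-fold or more the share with CAGCTG was 29.1%. These are counts of letters in a window, and no binding was measured. Myom1 rose by 4.85 ± 0.27, from a range of 6.25 to 8.31 (median 6.96) to one of 11.40 to 12.31 (median 12.07).

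The apparatus that couples the nerve's signal to contraction rose as well. Of 26 genes of excitation-contraction coupling and calcium 25 rose and 0 fell. The median change was 2.37, with 1.88 without replicates 1 to 4 and 2.66 without replicates 5 to 8. The exception, the potassium channel gene Kcna7, had a change of 0.02. The largest changes were those of the proteins that store and tether calcium in the sarcoplasmic reticulum: Trdn, or triadin, rose by 5.45 ± 0.32, the cardiac and slow calsequestrin Casq2 by 5.33 ± 0.37, the fast calsequestrin Casq1 by 5.16 ± 0.37 and the histidine-rich calcium-binding protein Hrc by 4.64 ± 0.35. Casq1 ran from 7.23 to 8.67 at E11.5 (median 7.59) and from 12.28 to 13.34 at E16.5 (median 12.90). Atp2a1, the calcium pump of fast fibres, rose by 4.26 ± 0.30 and its inhibitor Sln, or sarcolipin, by 3.25 ± 0.24. The calcium release channel Ryr1 rose by 2.88 ± 0.17 and the voltage sensor Cacna1s that opens it by 2.65 ± 0.17. All 8 E16.5 arrays lay above all 8 E11.5 arrays for each of these genes.

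All 13 genes of the sarcolemma and dystrophin complex rose (median 2.22). Dmd, which encodes dystrophin, the link between the cytoskeleton and the membrane, lay between 6.10 and 6.50 at E11.5 (median 6.40) and between 10.59 and 10.98 at E16.5 (median 10.79). Its rise of 4.48 ± 0.18 is a lower bound (adjusted p = 1.9e-15). At the neuromuscular junction 10 of 14 genes rose and 1 fell (median 0.52, and 0.79 without replicates 5 to 8). Among the subunits of the acetylcholine receptor, the fetal gamma subunit Chrng ran from 8.12 to 9.11 (median 8.74) and then from 9.71 to 10.82 (median 10.34), a rise of 1.69 ± 0.21, while the adult epsilon subunit Chrne had a change of 0.10 ± 0.10 that did not pass (adjusted p = 0.438). Chrnd rose by 1.72 ± 0.14, Chrna1 by 1.20 ± 0.23 and Musk, the kinase that gathers the receptors under the nerve ending, by 1.86 ± 0.21. Agrn fell by 0.56 on the log2 scale (SE 0.12, adjusted p = 0.000695), with overlapping arrays. It encodes agrin, which activates Musk and which motor neurons and other tissues make.

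Genes of energy supply rose in 3 lists, with the muscle-specific forms far ahead of the general machinery. Of 29 genes of muscle energy metabolism 28 rose and 0 fell (median 2.72, with 2.36 and 3.22 without replicates 1 to 4 and 5 to 8). Pygm, the muscle glycogen phosphorylase, ran from 6.75 to 7.61 (median 7.31) and then from 11.32 to 12.91 (median 12.18), a rise of 4.88 ± 0.31. Cox7a1, the muscle form of another cytochrome oxidase subunit, rose by 4.87 ± 0.29, the mitochondrial creatine kinase Ckmt2 by 4.66 ± 0.32 (a lower bound) and the cytosolic Ckm by 3.95 ± 0.24. Ppargc1a, a coactivator that drives the making of mitochondria, rose by 3.79 ± 0.20, from 6.50 to 7.80 (median 7.16) in the fold to 10.66 to 11.45 (median 10.97) in the diaphragm. All 44 genes of oxidative phosphorylation rose, with a median change of 0.90, a smallest change of 0.22 (Sdhc) and a largest of 1.68 (Atp5g1). The median was 0.65 without replicates 1 to 4 and 1.12 without replicates 5 to 8. The rise of Sdhc, a subunit of succinate dehydrogenase, did not pass without replicates 1 to 4 (adjusted p = 0.59), and 40 of the 44 passed in that fit. Of 26 genes of fatty acid oxidation and the tricarboxylic acid cycle 25 rose (median 1.22), led by Idh3a, a subunit of isocitrate dehydrogenase (2.69 ± 0.26), and Acadl, the long-chain acyl-CoA dehydrogenase (2.57 ± 0.20). Without replicates 1 to 4 the median of this list was 0.95, and without replicates 5 to 8 it was 1.49. The E16.5 sets did not overlap in these lists: the mean of muscle energy metabolism was 10.72 to 11.11 in replicates 1 to 4 and 9.96 to 10.31 in replicates 5 to 8, and that of oxidative phosphorylation 11.93 to 12.15 and 11.52 to 11.67. Both sets lay above the E11.5 arrays, which ran from 7.71 to 7.86 and from 10.84 to 11.04.

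**Figure D3:**
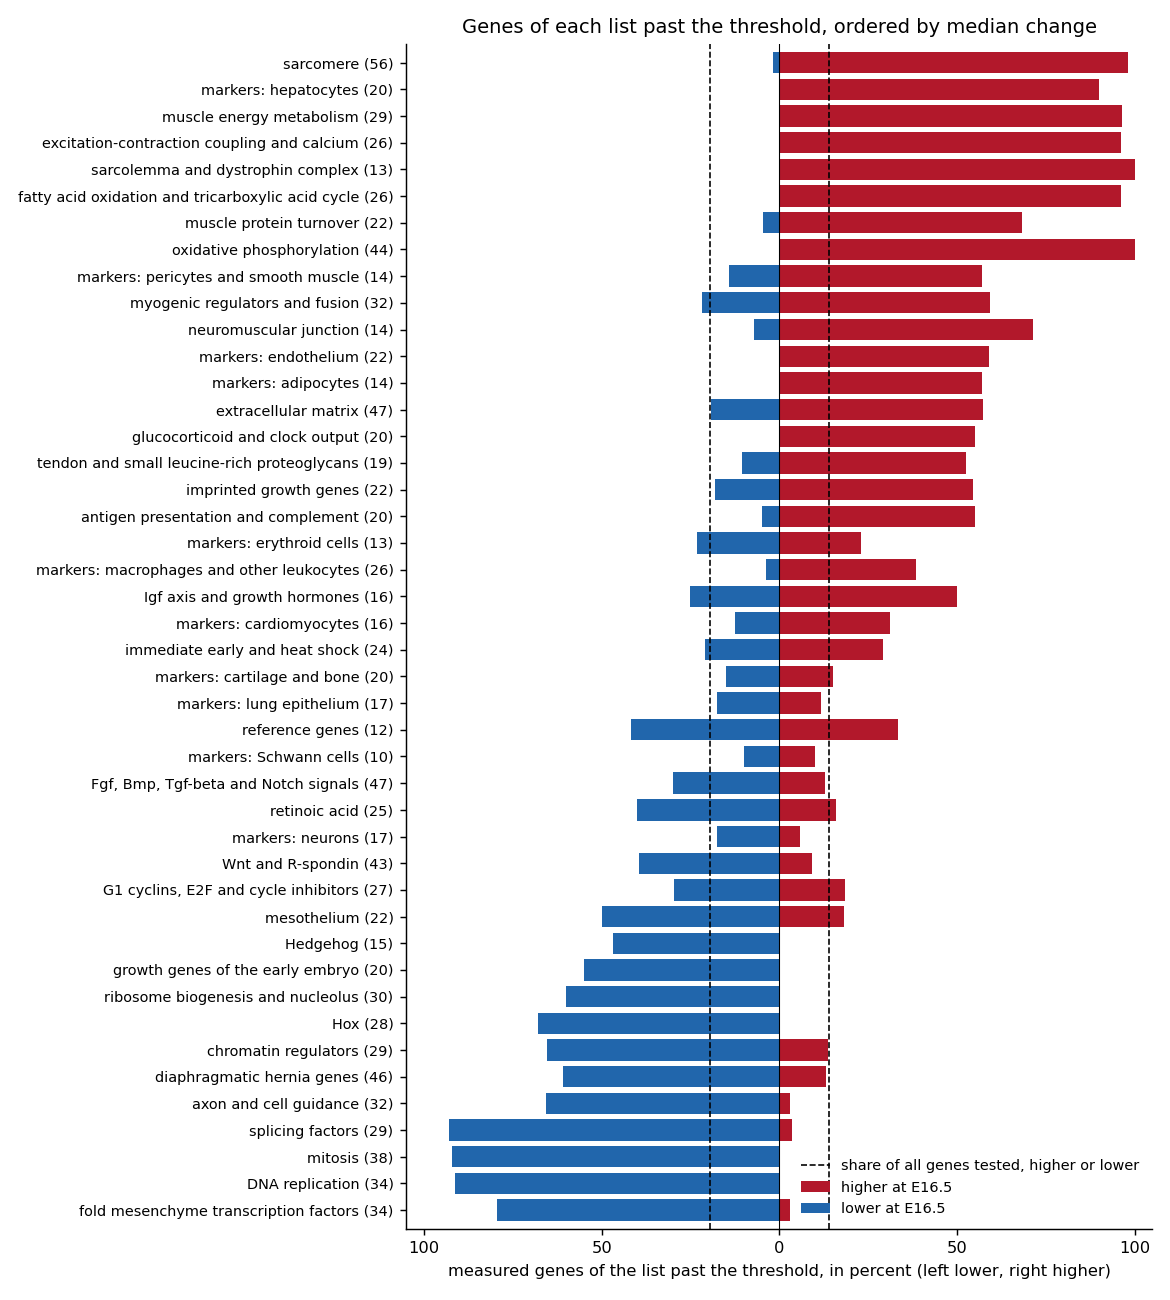
Percentage of each list's measured genes (number in brackets) that passed the threshold, higher at E16.5 to the right in red and lower to the left in blue, with lists ordered by median change. The dashed lines mark the shares over all genes, 13.8% higher and 19.6% lower; sarcomere, hepatocyte markers, muscle energy metabolism, excitation-contraction coupling and sarcolemma stand at the top and fold mesenchyme, DNA replication, mitosis and splicing at the foot.

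The regulators of myogenesis did not move as 1 group. Of 32 genes 19 rose and 7 fell (median 0.56). Of the determination factors that make a cell a myoblast, Myod1 lay at 7.92 to 9.19 (median 8.65) and 8.74 to 9.40 (median 8.80), a difference of 0.22 ± 0.16 that did not pass (adjusted p = 0.301). Myf5 rose by 0.49 ± 0.15 (adjusted p = 0.0126), a call that ended without replicates 1 to 4 (0.38, adjusted p = 0.16). Myog, which starts differentiation, rose by 0.95 ± 0.14, from 9.13 to 10.29 (median 9.75) to 10.52 to 10.92 (median 10.81). Myf6, the late member of the family, was below the lower quartile in all E11.5 arrays, at 5.48 to 6.15 (median 5.95), and lay at 9.93 to 11.19 (median 10.64) at E16.5, a rise of at least 4.72 ± 0.22 (adjusted p = 3.32e-14). The progenitor factors differed: Pax3, which acts in migrating progenitors, fell by 0.61 on the log2 scale (SE 0.19, adjusted p = 0.0134), although neither set of 4 alone gave that call (adjusted p = 0.057 and 0.095), and Pax7, which marks the later progenitors and satellite cells, had a change of -0.004 ± 0.10. Mef2c, a partner of the MyoD family on muscle promoters, rose by 2.36 ± 0.17, and the fusion proteins myomaker (Mymk) and myomixer (Mymx) rose by 2.25 ± 0.22 and 0.94 ± 0.18. Mstn, which encodes myostatin, a brake on muscle growth, rose by 2.10 ± 0.34, and by 1.29 without replicates 1 to 4. The 7 falls included the inhibitors of MyoD-type factors Id3 (-1.93 ± 0.11) and Id2 (-1.85 ± 0.23). Id3 lay between 9.74 and 10.38 in the fold and between 7.74 and 8.40 in the diaphragm. Meox1, a homeobox factor of the somite, changed by -1.21 ± 0.18 and its relative Meox2 by 1.86 ± 0.24 in the other direction. Eya1, a cofactor of homeobox proteins in muscle progenitors, changed by -1.02 ± 0.18.

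Genes of cell division fell. Of 34 DNA replication genes 0 rose and 31 fell (median -0.73), and of 38 mitosis genes 0 rose and 35 fell (median -0.72), against 19.6% of all genes. Most of these falls were under 2-fold, with 7 and 8 genes past it, and the arrays overlapped between the stages in most of them. Bub1, a kinase of the spindle checkpoint, lay at 9.76 to 10.78 in the fold (median 10.50) and at 8.24 to 9.84 in the diaphragm (median 9.16), a change of -1.34 ± 0.18 (adjusted p = 1.58e-06). Its partner Bub1b changed by -1.12 ± 0.12, the helicase subunit Mcm4 by -1.30 ± 0.18, Gins1, another part of the replicative helicase, by -1.29 ± 0.18, and the topoisomerase Top2a by -0.77 ± 0.12. The E16.5 sets differed in these lists. Mitosis had list means of 8.81 to 8.95 in replicates 1 to 4 and 9.19 to 9.57 in replicates 5 to 8, against 9.69 to 10.03 at E11.5. DNA replication had 8.32 to 8.59 and 8.78 to 9.04, against 9.17 to 9.55. Without replicates 1 to 4 the counts were 20 and 25 and the medians -0.55 and -0.48, Mcm4 changed by -0.85 and Top2a by -0.39, and Mki67, the proliferation antigen (-0.39 ± 0.15, adjusted p = 0.0469), had 0.03 and no call. Mki67 also did not pass with only the 16 arrays compared (adjusted p = 0.0859). Ccna2, cyclin A2, did not pass (-0.23 ± 0.13, adjusted p = 0.185), but did without replicates 5 to 8 (-0.43, adjusted p = 0.0375). Among the G1 cyclins, E2F factors and inhibitors 5 of 27 rose and 8 fell (3 and 5 without replicates 1 to 4), with a median of -0.15 (-0.07 in that fit, and -0.10 without E11.5 replicate 7 or E16.5 replicate 1). The falls of Ccnd2, cyclin D2 (-1.33 ± 0.08), and of its kinase Cdk4 (-1.32 ± 0.08) were without overlap between the arrays. Rb1, the retinoblastoma protein that holds E2F in check, rose by 2.01 ± 0.21, from 6.90 to 9.20 (median 8.28) to 9.91 to 10.63 (median 10.29).

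The promoters of 3 mitosis genes are shown for the motifs they share. Capitals mark the CCAAT box (or its complement ATTGG), which the factor NF-Y binds, and, in Top2a, the cell cycle homology element TTTGAA (here as TTCAAA). Bub1 lies at chr2:127831860-127832009 on the minus strand, Bub1b at chr2:118598061-118598210 on the plus strand and Top2a at chr11:99024190-99024339 on the minus strand.
Bub1: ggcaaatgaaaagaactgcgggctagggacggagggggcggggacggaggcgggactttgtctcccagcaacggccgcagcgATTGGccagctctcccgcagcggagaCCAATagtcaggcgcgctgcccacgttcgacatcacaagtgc
Bub1b: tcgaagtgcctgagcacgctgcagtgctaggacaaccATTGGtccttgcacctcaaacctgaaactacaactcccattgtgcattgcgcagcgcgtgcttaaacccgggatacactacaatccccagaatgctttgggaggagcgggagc
Top2a: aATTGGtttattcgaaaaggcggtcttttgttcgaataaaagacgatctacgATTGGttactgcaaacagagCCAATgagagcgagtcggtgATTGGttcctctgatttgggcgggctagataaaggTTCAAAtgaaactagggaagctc
The 150 bases of Top2a hold 4 CCAAT boxes and those of Bub1 hold 2. In the 250 bases before the start a CCAAT box was found in 20 of 29 mitosis promoters (69.0%), in 16 of 25 of DNA replication (64%), in 13 of 22 of splicing factors (59.1%) and in 35.9% of all promoters. TTTGAA was found in 9 of the 29 mitosis promoters (31.0%) and in 14.3% of all. It was in 2 of 25 promoters of DNA replication (8%) and in 2 of 22 of splicing factors (9.09%). Among genes that fell by 2-fold or more the share was 13.9%. Among sarcomere promoters the share with a CCAAT box was 34.3%. Some other rising sets had higher shares, 50% in muscle energy metabolism (10 of 20) and 41.9% among genes that rose by 8-fold or more. Among all genes that fell by 2-fold or more it was 43.5%, and among those that rose by 2-fold or more 37.4%.

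Growth, RNA processing and chromatin genes were mostly lower in the diaphragm. Of 20 growth genes of the early embryo 0 rose and 11 fell (median -0.30). After Hmga2 the largest changes were those of Igf2bp1, an RNA-binding protein that holds Igf2 and other messages (-1.83 ± 0.15), and Sox11, a transcription factor of early mesenchyme and neurons (-1.44 ± 0.08). Sox11 lay between 10.52 and 10.85 in the fold and between 9.01 and 9.51 in the diaphragm. Mycn changed by -0.53 ± 0.09. Lin28b, which blocks maturation of let-7 microRNAs, changed by -0.74 ± 0.21 (a lower bound, and no call without replicates 1 to 4, adjusted p = 0.21), and Lin28a had -0.10 ± 0.09, which did not pass. In ribosome biogenesis 18 of 30 genes fell and 0 rose (median -0.35), and 8 fell in the fit without replicates 1 to 4, with the nucleolar proteins Nop56 (-0.90 ± 0.10) and Fbl (-0.83 ± 0.12) first. Of 29 splicing factors 27 fell and 1 rose (median -0.60, with -0.42 and -0.71 without replicates 1 to 4 and 5 to 8). U2af2, which recognises the 3′ splice site, lay at 9.51 to 10.03 (median 9.84) and then at 8.18 to 8.93 (median 8.71), a change of -1.14 ± 0.10 (adjusted p = 2.57e-09). Ptbp1, a repressor of muscle and neuronal exons, changed by -1.0 ± 0.09, while Rbfox1, a splicing regulator of muscle and brain on the myogenic list, rose by 2.58 ± 0.21. Of 29 chromatin regulators 19 fell and 4 rose (median -0.48). Ezh2, the histone H3 lysine methyltransferase of dividing cells, lay at 11.25 to 11.64 and then at 9.97 to 10.87, a change of -1.16 ± 0.11, and its relative Ezh1 rose by 0.34 ± 0.10 (no call without replicates 5 to 8, adjusted p = 0.070). Hells, a remodelling helicase, changed by -1.42 ± 0.24, and by -0.73 without replicates 1 to 4. Hdac9, a class IIa deacetylase that restrains Mef2, rose by 1.21 ± 0.11.

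The transcription factors of the fold mesenchyme fell. Of 34 measured 27 fell and 1 rose (median -0.80), and 12 fell by 2-fold or more. The 2 sets of E16.5 arrays overlapped here, at list means of 7.91 to 8.05 and 7.91 to 8.08, against 8.70 to 8.97 at E11.5. Tbx5, a T-box factor of limb, heart and body wall, lay between 8.34 and 10.05 in the fold (median 9.23) and between 6.21 and 7.44 in the diaphragm (median 6.71), a change of -2.38 ± 0.23 (adjusted p = 7.87e-09). The COUP-TF receptor Nr2f1 changed by -2.25 ± 0.16 (a lower bound), Twist1, a mesenchymal bHLH factor, by -2.03 ± 0.14, and the Hox cofactors Meis2 and Meis1 by -1.99 ± 0.15 and -1.95 ± 0.10. Twist1 ran from 9.29 to 9.92 (median 9.49) and then from 6.86 to 8.08 (median 7.52). The 1 rise was Tcf4 (0.36 ± 0.11, no call without replicates 5 to 8, adjusted p = 0.11). Prrx1, which marks limb and body wall mesenchyme, and Tcf21 did not pass (0.45 ± 0.21 and -0.04 ± 0.22), although Prrx1 did without E16.5 replicate 8 (0.58, adjusted p = 0.0286).

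Genes tied to diaphragmatic hernia, in patients or in mutant mice, fell more often than they rose. Of 46 measured 28 fell and 6 rose (median -0.54), and 15 fell by 2-fold or more. The list takes genes from the fold, retinoic acid and myogenic lists and is no independent set. Gata4, mutated in some families with hernia, lay between 9.24 and 9.91 in the fold (median 9.45) and between 8.39 and 9.37 in the diaphragm (median 8.78), with a change of -0.73 ± 0.14, and its cofactor Zfpm2 (Fog2) changed by -1.04 ± 0.18. Nr2f2, or COUP-TFII, changed by -0.89 ± 0.13, Gata6 by -1.56 ± 0.17 and Wt1, the Wilms tumour factor of mesothelium and fold, by -1.60 ± 0.13. Wt1 lay between 10.29 and 10.75 (median 10.58) and then between 8.20 and 9.25 (median 9.06). The receptor Pdgfra changed by -1.49 ± 0.12, the guidance receptor Robo1 by -2.46 ± 0.15, Gli3 of the Hedgehog pathway by -1.76 ± 0.15 and the basement membrane protein Fras1 by -1.19 ± 0.12. Hgf, the attractant of muscle progenitors, lay between 7.01 and 8.83 (median 8.43) and then between 6.02 and 7.17 (median 6.55), a change of -1.56 ± 0.26, while its receptor Met did not pass (0.43 ± 0.23), but did without E11.5 replicate 8 (0.58, adjusted p = 0.0359). Of the 6 rises the largest was that of Mef2a, a muscle transcription factor (1.05 ± 0.10). Lox, which crosslinks collagen and elastin, rose by 0.59 ± 0.17, a call that ended without replicates 5 to 8 (adjusted p = 0.16).

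Retinoic acid, made from vitamin A, patterns the fold, and several of its synthesis and carrier genes fell while the plasma carriers Rbp4 and Ttr rose. Of 25 genes 10 fell, 4 rose and 11 did not pass (median -0.12, and -0.22 without replicates 1 to 4). Aldh1a2, which makes retinoic acid in the embryo, lay between 10.24 and 11.41 in the fold (median 10.82) and between 6.60 and 8.82 in the diaphragm (median 8.21), a change of -2.79 ± 0.35 (adjusted p = 7.4e-07). Rdh10, which makes the retinaldehyde it uses, changed by -1.81 ± 0.26, and Stra6, the receptor that takes up retinol, by -1.01 ± 0.10. Crabp2, which carries retinoic acid to its receptors, ran from 11.37 to 12.39 (median 12.24) and then from 7.84 to 9.52 (median 8.12), a change of -3.83 ± 0.18, and Crabp1 changed by -2.58 ± 0.29. The receptor Rarb, itself a target of retinoic acid, changed by -1.50 ± 0.23. The rises were those of the retinol carrier Rbp4 (3.43 ± 0.42), its plasma partner Ttr (4.43 ± 0.47), the alcohol dehydrogenase Adh1 (3.37 ± 0.51) and the receptor Rxrg. Rbp4 and Ttr are also on the hepatocyte list, of which 18 of 20 genes rose.

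Guidance receptors and position genes fell. Of 32 genes of axon and cell guidance 21 fell and 1 rose (median -0.58), among them Robo1, its ligand Slit2 (-1.06 ± 0.17) and Sema3a, a repellent of axons (-1.65 ± 0.17). Robo1 lay between 10.56 and 11.30 (median 11.13) and then between 7.92 and 9.37 (median 8.63). Of 28 Hox genes, which mark position along the body axis, 19 fell and 0 rose (median -0.48). The falls included Hoxc5 (-1.61 ± 0.21), Hoxa2 (-1.55 ± 0.19) and Hoxa5 (-1.54 ± 0.17). Hoxa5 lay between 9.60 and 10.64 in the fold and between 7.92 and 9.24 in the diaphragm. Of 15 Hedgehog genes 7 fell and 0 rose (median -0.26, and -0.13 without E11.5 replicate 2). Of 43 Wnt and R-spondin genes 17 fell and 4 rose (median -0.15), with the receptor Fzd3 (-2.22 ± 0.20) and the inhibitor Sfrp1 (-2.08 ± 0.15) among the falls and the inhibitor Frzb (2.46 ± 0.35) among the rises. Frzb, of the same family as Sfrp1, lay at 6.01 to 6.98 in the fold, at 9.31 to 10.22 in E16.5 replicates 1 to 4 and, in replicates 5 to 8, at 7.32 to 8.72, so its rise was 1.52 without the former and 3.39 without the latter, a lower bound in each case. The Wnt target Axin2 rose by 0.56 ± 0.13, which did not pass without replicates 1 to 4 (adjusted p = 0.14), and 1 Wnt gene in all rose in that fit. Of 47 Fgf, Bmp, Tgf-beta and Notch signals 14 fell and 6 rose (3 without replicates 1 to 4), with Tgfb2 first among the falls (-1.42 ± 0.10) and Fgf7 among the rises (2.30 ± 0.50). The median of that list, -0.11, was close to that of all genes, and leaving out E11.5 replicate 6 or 7 gave -0.07 or -0.17.

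Connective tissue genes rose more often than they fell. Of 47 matrix genes 27 rose and 9 fell (median 0.40, with 0.32 and 0.47 without replicates 1 to 4 and 5 to 8). The E16.5 sets did not overlap, at list means of 9.68 to 9.80 in replicates 1 to 4 and 9.53 to 9.65 in replicates 5 to 8. Dpt, or dermatopontin, which binds decorin and collagen, lay between 5.28 and 7.32 at E11.5 (median 5.53) and between 10.96 and 11.90 at E16.5 (median 11.74), a rise of 5.89 ± 0.47 and a lower bound. Postn, or periostin, a matrix protein of fibrous tissue, ran from 7.93 to 10.14 (median 9.78) and then from 11.86 to 12.57 (median 12.28), a rise of 2.62 ± 0.28. The fibril-associated collagen Col14a1 rose by 2.69 ± 0.17 and the main fibrillar chain Col1a1 by 0.87 ± 0.15. The falls included the matrix of loose mesenchyme: Vcan, or versican, lay at 11.42 to 11.98 and then at 9.99 to 10.85 (-1.24 ± 0.10), and Fn1, fibronectin, changed by -0.50 ± 0.08. Of 19 genes of tendon and of small leucine-rich proteoglycans 10 rose and 2 fell (median 0.35). Aspn, or asporin, rose by 5.55 ± 0.35, Ogn by 2.88 ± 0.34 and Dcn, decorin, by 2.55 ± 0.32. The tendon factor Scx fell, with a change of -0.56 ± 0.11 and overlapping arrays, while Tnmd, a late tendon protein, was spread at E16.5 from 6.21 to 10.84 against 5.94 to 6.62 at E11.5. Its rise of 1.74 ± 0.51 (a lower bound) was 2.73 without replicates 1 to 4 and 0.75 without replicates 5 to 8, which did not pass (adjusted p = 0.097). Of 22 mesothelial genes 11 fell and 4 rose (median -0.23). Upk3b, a mesothelial membrane protein, changed by -0.97 ± 0.23 (no call without replicates 1 to 4, adjusted p = 0.062), and Msln, mesothelin, rose by 0.66 ± 0.11, and by 0.43 without replicates 5 to 8, where 2 mesothelial genes in all rose.

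Imprinted genes, which are expressed from 1 parental copy and many of which set fetal growth, moved both ways. Of 22 measured 12 rose and 4 fell (median 0.31, and 0.19 without replicates 1 to 4). Meg3, the noncoding RNA of the Dlk1 domain, lay between 10.90 and 11.80 (median 11.13) and then between 12.29 and 12.90 (median 12.64), a rise of 1.42 ± 0.14. Its neighbours rose as well, Rtl1 by 1.77 ± 0.13 and Dlk1 by 0.92 ± 0.15. Nnat, or neuronatin, lay between 11.60 and 11.89 and then between 8.90 and 10.07, a change of -2.40 ± 0.12. Igf2, the fetal growth factor, was bright at both stages, at 12.08 to 12.63 (median 12.37) and 12.46 to 12.90 (median 12.64), and its rise of 0.33 ± 0.09 did not pass without replicates 1 to 4 (0.14, adjusted p = 0.34). Of 16 genes of the Igf axis 8 rose and 4 fell (median 0.19; 5 and 3 without replicates 1 to 4, 7 and 2 without replicates 5 to 8), with Igfbp7 at 2.54 ± 0.21 and Igfbp5 at -1.40 ± 0.12. Among 22 genes of muscle protein turnover 15 rose and 1 fell (median 0.96, and 0.51 without replicates 1 to 4). They include Asb12, a substrate adaptor of a ubiquitin ligase, at 4.70 ± 0.31 (a lower bound), and the ligase Trim63, or MuRF1, at 1.63 ± 0.14.

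Genes that respond to hormones and to the immune system were on balance higher. Of 20 genes of glucocorticoid and clock output 11 rose and 0 fell (median 0.37; without replicates 1 to 4, 7 rose and 1 fell and the median was 0.18). Nr3c1, the glucocorticoid receptor, lay between 6.75 and 7.87 (median 7.57) and then between 8.52 and 9.13 (median 8.69), a rise of 1.40 ± 0.16, and its target Zbtb16 rose by 1.21 ± 0.25, and by 0.77 without replicates 1 to 4. Of 20 genes of antigen presentation and complement 11 rose and 1 fell (median 0.31), with B2m, the light chain of class I molecules, at 0.82 ± 0.15. Immediate early and heat shock genes, which can respond to handling of tissue, had 7 of 24 higher and 5 lower, with a median of 0.10, and 3 higher without replicates 1 to 4. That median was 0.15 without E16.5 replicate 5. Genes often used as references were no constant scale. Of 12, 4 rose and 5 fell: Tfrc (1.80 ± 0.22), Hprt (1.52 ± 0.22), Sdha and Pgk1 rose, Actb (-0.73 ± 0.06), Polr2a (-0.81 ± 0.08), Tbp, Ywhaz and Ppia fell, and Rplp0 (-0.06 ± 0.06), Eef1a1 (-0.05 ± 0.04) and Gusb (0.40) did not pass. After a second quantile normalization Rplp0 changed by -0.21 and passed (adjusted p = 0.00402). Gusb passed with only the 16 arrays compared (adjusted p = 0.0432) and without E11.5 replicate 6 or 8 (0.0306 and 0.0267). The falls of Ppia and Ywhaz did not pass without replicates 1 to 4 (adjusted p = 0.58 and 0.16), nor that of Tbp without replicates 5 to 8 (0.065). Actb was among the brightest genes in 7 of the 8 E11.5 arrays, so its fall is a lower bound.

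Markers of other cell types also differed, and their part in the results above was not tested. Of 20 hepatocyte markers 18 rose and 0 fell (median 3.52). Afp, the fetal serum protein alpha-fetoprotein, lay between 6.17 and 7.66 (median 6.49) and then between 10.25 and 12.61 (median 12.22), a rise of 5.27 ± 0.44 (a lower bound), and the apolipoprotein Apoa2 rose by 4.73 ± 0.45. Hnf4a, the liver transcription factor, and Cps1, the urea cycle enzyme, did not pass. Hnf4a lay at 7.40 to 7.89 and at 7.75 to 8.45 (0.33 ± 0.14, adjusted p = 0.080), and its difference passed with only the 16 arrays compared (adjusted p = 0.0288) and in an unequal-variance test (0.0436). The list's highest and lowest E16.5 arrays, at 10.84 and 8.82, were both among replicates 1 to 4. Lung epithelium had 2 of 17 markers higher (1 without replicates 1 to 4) and 3 lower, with a median of -0.04 that was 0.002 without E11.5 replicate 2. These shares, 11.76% and 17.65%, were near the 13.8% and 19.6% of all genes. The surfactant gene Sftpc was the large rise, from 5.85 to 6.14 (median 5.96) to a spread of 8.0 to 12.73 (median 11.18), a change of 4.61 ± 0.48 and a lower bound. Nkx2-1 (-0.04 ± 0.08) and Sftpb (0.04 ± 0.08), which the same cells express, did not pass.

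Markers of blood cells moved both ways. Of 13 erythroid markers 3 rose (1 without replicates 5 to 8) and 3 fell, and the falls were the embryonic globins named above. Slc4a1, the band 3 anion exchanger of red cells, and Alas2, the first enzyme of haem synthesis in them, did not pass (0.06 ± 0.28 and 0.29 ± 0.15). Of 26 leukocyte markers 10 rose and 1 fell (median 0.28), with the neutrophil proteins S100a8 and S100a9 first. S100a8 lay between 5.47 and 6.23 (median 5.89) and then between 10.17 and 12.09 (median 11.49), a rise of 5.52 ± 0.30, and S100a9 rose by 5.12 ± 0.29. Mpo, the myeloperoxidase of granulocyte precursors, rose by 1.99 ± 0.31 and Lyz2, lysozyme, by 2.11 ± 0.29, while Ptprc, which all leukocytes carry, rose by 0.49 ± 0.14 (no call without replicates 5 to 8, adjusted p = 0.22). Of 22 endothelial markers 13 rose and 0 fell (median 0.47). The E16.5 sets did not overlap in that list, at 8.86 to 9.10 in replicates 1 to 4 and 8.32 to 8.47 in replicates 5 to 8 against 7.80 to 8.18 at E11.5. Without the former 7 rose and 1 fell with a median of 0.07, and without the latter 17 rose and 0 fell with a median of 0.73. Cdh5, the cadherin of endothelial junctions, rose by 1.28 ± 0.21, and by 0.77 without replicates 1 to 4. Fabp4, a fatty acid carrier of capillary endothelium and fat cells, rose by 3.61 ± 0.24. Of 14 pericyte and smooth muscle markers 8 rose and 2 fell (median 0.60, and 0.38 without replicates 1 to 4). The largest rises were those of Des (3.47) and Mustn1, followed by the channel subunit Abcc9 at 2.74 ± 0.13. The falls were those of the receptors Pdgfrb (-1.19 ± 0.15) and Notch3. Whether the rises came from these cells or from muscle fibres was not tested.

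**Figure D4:**
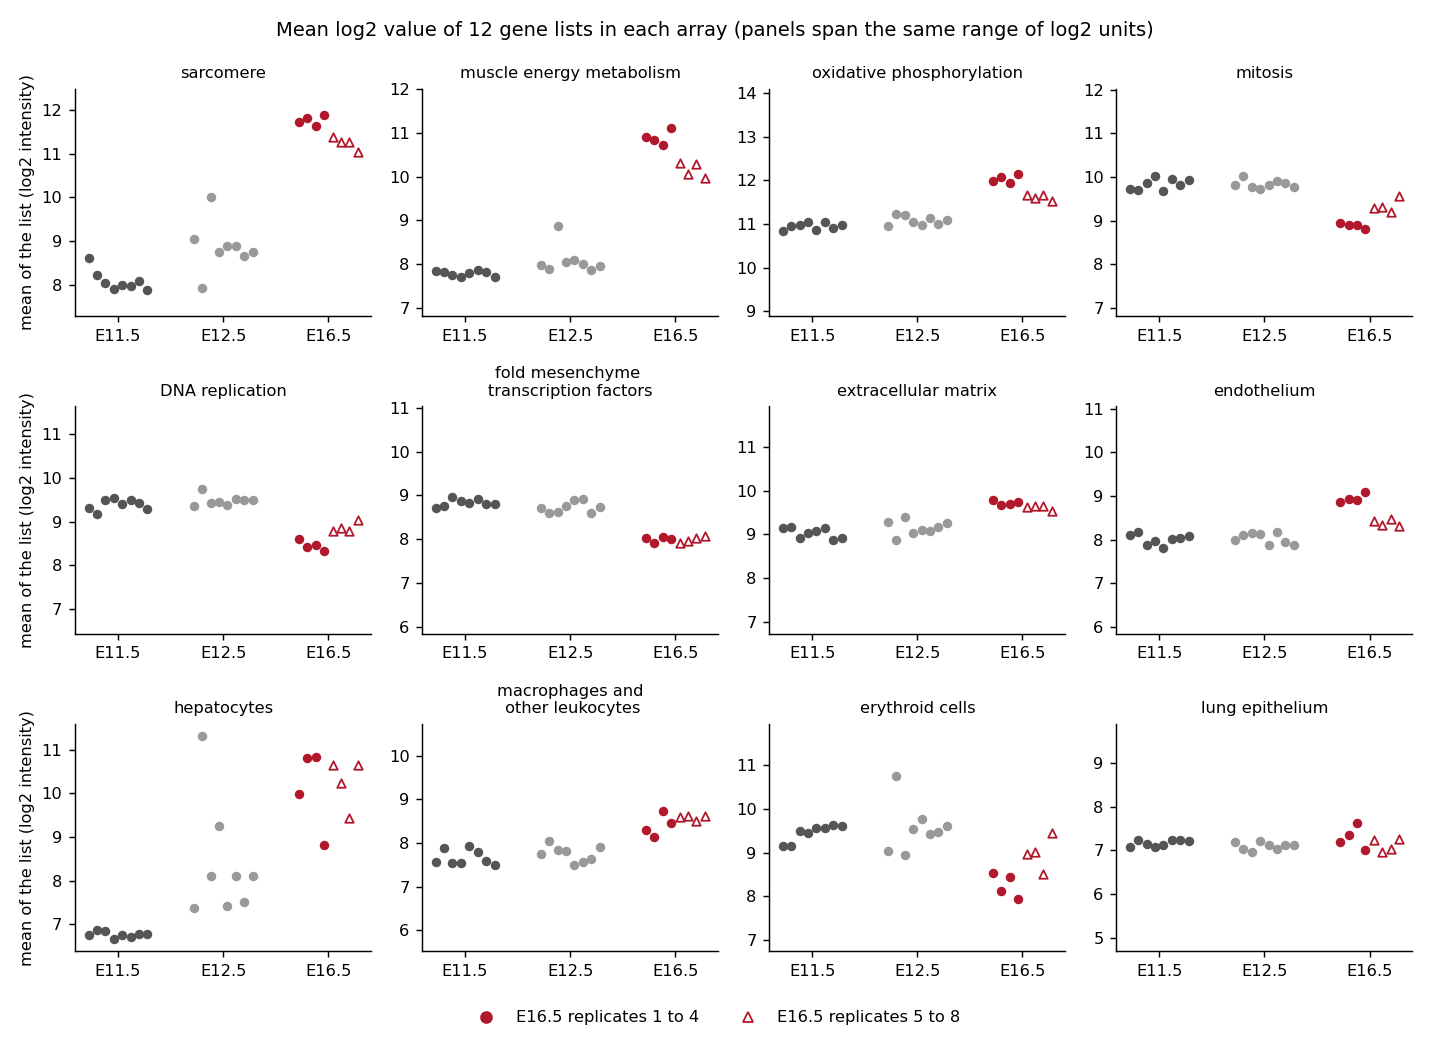
Mean log2 intensity of 12 gene lists (vertical, each panel spanning the same number of log2 units) in every array of E11.5, E12.5 and E16.5, with replicates 1 to 8 from left to right within a stage and open triangles for E16.5 replicates 5 to 8. The hepatocyte panel shows the widest spread within E16.5, 8.82 to 10.84. The E16.5 sets do not overlap in the sarcomere, muscle energy, oxidative phosphorylation, mitosis, DNA replication, extracellular matrix and endothelium panels.

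Markers of neurons, Schwann cells, heart and cartilage had smaller or mixed changes, while 8 of 14 fat cell markers rose (57.14%). Over all genes 13.8% rose and 19.6% fell. The shares were 5.88% and 17.65% for neurons, 10% and 10% for Schwann cells and 15% and 15% for cartilage and bone. Shares so near those of all genes, or below them, give no result about these lists as a whole. Of 17 neuronal markers 1 rose and 3 fell (median -0.15, and -0.09 without E11.5 replicate 7), with 5 falls without E11.5 replicate 4 or E16.5 replicate 5, the neurofilament Nefm with a change of -2.18 ± 0.27 (a lower bound), and of 10 Schwann cell markers 1 rose and 1 fell, with Sox10 not past the threshold (-0.20 ± 0.10). Of 16 cardiomyocyte markers 5 rose and 2 fell (median 0.18, with 0.31 and 0.08 without replicates 1 to 4 and 5 to 8, 0.11 without E16.5 replicate 5 and 0.08 without replicate 8). The rises include Myl2 and Sln, which skeletal muscle also expresses, while Myl7, the atrial light chain, changed by -1.15 ± 0.24 and the atrial peptide Nppa did not pass (0.48 ± 0.31). Nppa was at 10.23 in E16.5 replicate 8 and at most 7.43 in the other arrays of that stage. Cartilage and bone had 3 of 20 higher and 3 lower, with a median of -0.03 that leaving out 1 array moved between -0.06 and -0.01. Among them the bone protein Ibsp was spread from 5.26 to 11.17 at E16.5 against 5.12 to 6.29 at E11.5 (2.64 ± 0.63, a lower bound, and 1.71 without replicates 5 to 8), and Sp7, the osteoblast factor, did not pass (0.15 ± 0.12). Of 14 fat cell markers 8 rose and 0 fell (median 0.47, and 0.17 without replicates 1 to 4). However, Adipoq and Ucp1, both on that list, lay under the lower quartile in all arrays of both stages. They had changes of -0.12 ± 0.08 and -0.06 ± 0.08.

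The genes with the highest means differed between the stages. At E11.5 the 8 genes with the highest mean were Tmsb10, Rps6, Rps29, Hbb-y, Rps14, Rpl36, Eef1a1 and Gas5, which are ribosomal and translation genes, an embryonic globin, thymosin beta 10 and a host gene of small nucleolar RNAs. At E16.5 they were Tnnt3, Actc1, Rps29, Tnnc2, Rps6, ND3, Tnni2 and Rps14, of which 4 are sarcomere genes. Rps29 lay at 13.56 to 13.73 and then at 13.55 to 13.77, and ND3, a mitochondrially encoded subunit of complex I, rose from 13.29 to 13.47 to 13.57 to 13.67. Both ranges were narrow at this end of the scale. The change of ND3 is a lower bound, since it was among the brightest genes.

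The changed genes were spread over the genome, with a few runs of neighbours. By chromosome the share that rose ran from 10.8% (chromosome 7) to 18% (chromosome 1), and the share that fell from 16.6% (chromosome 6) to 21.8% (chromosome 5), leaving out the Y chromosome with 9 genes. Runs of 3 or more adjacent measured genes that all changed by 2-fold or more in 1 direction numbered 9, with 31 genes, and 8 of them were higher at E16.5. The 2 longest had 5 genes each. On chromosome 11 it was the myosin cluster Myh3, Myh2, Myh1, Myh4 and Myh8, and on chromosome 16 the stefin cluster Csta3, Csta2, Cstdc6, Stfa2 and Stfa3, cysteine protease inhibitors of which several are made by neutrophils, with rises of 1.17 to 5.20. The fibrinogen genes Fgg, Fga and Fgb on chromosome 3, made in liver, rose by 3.58 to 4.83. These rises are lower bounds for the 3 fibrinogen genes and for the 5 stefin genes, whose E11.5 arrays were dim. Stefin genes are near-identical copies, so their separate values are uncertain.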

How the data were processed

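RNA from laser-captured tissue was amplified with NuGEN kits and hybridised to Affymetrix Mouse Gene 1.0 ST arrays, 8 per stage. The authors deposited RMA values on the log2 scale; per the submitters' processing notes they used Affymetrix Expression Console 1.1, R 2.9.2 and RMA, with neither the role of each nor joint normalization given in the sources used here. No count or depth exists for arrays, and their number limits the precision.

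Of 24200 probe sets 20760 have 1 gene symbol in the platform annotation, 1140 several and 2300 none. Only the first kind was used, with the probe set of the highest mean for each of 19351 genes (804 had several). The linear model was fitted with limma 3.58.1 under R 4.3.3 (all 24 arrays, 1 term per stage, moderated by eBayes, two-sided, Benjamini-Hochberg over all genes, threshold 0.05). The procedure was tested on simulated data with independent noise per gene and the same spread in every stage. Those data held no sets within E16.5, so the test checks the code and not the results given here. The members and the 46 gene lists (1219 entries, 83 without a match, among them every muscle microRNA locus) were chosen with earlier results of these data known.

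Genes were named by rule: the 15 largest rises and falls with arrays that do not overlap, leaving out unnamed models, olfactory and vomeronasal receptors, small RNAs and sex-linked genes; up to 4 changed members per list and direction; members of the myogenic, hernia, retinoic acid, fold, early growth and reference lists; and the 8 highest means per stage. Others, such as most myosins, the genes in runs of neighbours, the promoters' Acta1, Myom1 and Top2a, Mki67, and defining markers, were chosen after their values were seen. Same-numbered arrays of E11.5 and E16.5 did not deviate together over all genes, and the main fit used no pairing. A pairing that acts on few genes would not show in that check. Alternatives were other scalings, filters, variance models, probe set rules and arrays left out.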

Additional observations from a re-analysis of the deposited data

Results flagged for a closer look

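An array counted as far from the others when the gap to its nearest neighbour exceeded Dixon's critical share of the range of its stage. Of 530 series of 8 arrays tested, over lists and named genes, 43 held such an array, and chance gives about 1 in 20. No explanation was tested.

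Among list means, the Igf axis had 9.26 in E11.5 replicate 8, reference genes 10.82 in E11.5 replicate 1, neuronal markers 7.79 in E11.5 replicate 7, Hox genes 7.21 in E16.5 replicate 8 and cardiomyocyte markers 8.46 in E16.5 replicate 8.

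At E11.5, replicate 1 was the highest array for several muscle genes: Acta1 at 10.27, Myh3 at 10.33, Hrc at 9.88, Trdn at 7.58, Chrna1 at 7.92, Meox1 at 10.77 and Rbfox1 at 8.08. It was the lowest for Tgfb2 at 10.41. Replicate 2 was apart for Ezh2 (11.25), Ptbp1 (10.18), Fgf7 (9.95) and Stfa2 (5.62). Replicate 3 was apart for Afp (7.66), replicate 4 for Lin28b (8.24) and Ppp1r3a (5.04), and replicate 5 for Dpt (7.32) and Tcf4 (9.82). Replicate 6 was apart for Ptprc (7.03), replicate 7 for Hoxa2 (7.66) and Postn (7.93), and replicate 8 for Zbtb16 (8.40).

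At E16.5, replicate 8 was apart for Aspn (11.31), Cox8b (12.14), Dpt (10.96), Nppa (10.23) and Prrx1 (9.08). Replicate 4, the lowest array for hepatocyte markers, was apart for Alb (11.53), Fga (7.98), Lin28a (7.43), Nefm (7.77) and Pax7 (7.35). Replicate 5 was apart for Rimklb (7.43), Sp7 (7.64) and Tpm3 (12.48), replicate 6 for Crabp2 (9.52) and Sln (10.46), replicate 1 for Myod1 (9.40) and replicate 3 for Chrne (7.55).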

How the results depend on the processing

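With replicates 1 to 4 of E16.5 left out 4265 genes passed, 2297 of them lower, and 1172 had all E16.5 arrays below E11.5. With replicates 5 to 8 left out 1677 genes had all arrays above and 1524 all arrays below, since fewer arrays need to be apart. Against a fold of 1.5 (limma's treat) 1064 genes passed, 753 higher and 311 lower. Leaving out 1 array at a time gave 6018 (without E16.5 replicate 4) to 7163 genes (without E11.5 replicate 4), 2545 to 2694 higher, 3425 to 4469 lower, 850 to 929 higher by 2-fold, 348 to 427 lower by 2-fold, 1028 to 1128 with all arrays above and 780 to 893 with all below. Of the genes that passed, 41.4% were higher; it was 70.8% with treat, and 36.5% to 39.3% with another scaling. Other settings gave 4674 genes (the dimmest 50% left out) to 7080 (arrays centred on their medians). With the replicate block 6136 genes passed. Deviations from the stage mean correlated at -0.040 to 0.043 between same-numbered E11.5 and E16.5 arrays, and 1 of 8 correlated best with its own number.

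Of 220 genes named, 165 kept direction and call in every setting. Reversals were those of Mki67 without E16.5 replicates 1 to 4 (0.0334) and of Tpm3 with the mean over its probe sets (0.8201), where the probe sets differ; the cause was not tested. In lists with 1 gene in a direction, that gene lost its call without E16.5 replicates 1 to 4 for splicing, guidance, Schwann cells and leukocytes. Counts of 1 or 2 genes in the guidance, Schwann cell, leukocyte and tendon lists also moved when single arrays were left out. Dim genes give lower bounds only.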
